A study of Mus musculus with 16 samples.

Results

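The Cyp4a genes of the mouse encode cytochrome P450 enzymes that hydroxylate fatty acids. They were followed here across 16 RNA-seq libraries of whole mouse kidney, and the members are the 6 symbols Cyp4a10, Cyp4a14, Cyp4a12a, Cyp4a12b, Cyp4a31 and Cyp4a32, out of 23935 symbols in the deposited table. All 6 were found, and 5 of them passed the filter used for the fits, at least 1 TPM in at least 4 libraries (12960 genes). TPM is transcript abundance per length, scaled to a fixed total per library. Cyp4a32 did not pass.

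Every mouse was wild type, and the libraries fell into 4 groups of 4. The controls received PBS (buffered saline), and the other groups received cisplatin alone, with nicotinamide mononucleotide (NMN) or with nicotinamide riboside (NR). Cisplatin, a chemotherapy agent, binds DNA and is toxic to tubule cells. NMN and NR both feed NAD synthesis, and a kinase turns NR into NMN. By the labels each precursor preceded cisplatin, and tissue was taken on day 3 after the drug. The sources used here give no strain, age, dose or vehicle. No label says that the 4 libraries of a group came from separate animals, and every p-value below measures only the spread between these libraries, which may be technical. Because these genes were chosen with levels of the same libraries in view, their values are given as a description with no test.

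CYP4A enzymes add a hydroxyl group at or next to the far (omega) end of medium and long chain fatty acids. The products can be oxidized further to dicarboxylic acids and shortened in peroxisomes. The same enzymes convert arachidonic acid to a hydroxylated eicosanoid that acts on renal vessels and on salt transport. In rodents Cyp4a10 and Cyp4a14 are classic targets of the nuclear receptor PPAR-alpha, while Cyp4a12a is known as a male-biased, androgen-dependent arachidonate hydroxylase of the kidney. In the mouse kidney this family is expressed mainly in the proximal tubule.

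The 6 genes lie close together on chromosome 4 (GRCm38 coordinates, GENCODE vM21 annotation). Cyp4a12a spans chr4:115299046-115332815 and Cyp4a12b chr4:115411624-115439034, both on the plus strand. Cyp4a14 follows at chr4:115486200-115496142 on the minus strand. Cyp4a10 at chr4:115518264-115533649, Cyp4a31 at chr4:115563649-115579015 and Cyp4a32 at chr4:115600969-115621602 are again on the plus strand. Their coding sequences are 1521 to 1527 bases long. The annotated transcripts used for the comparison have 12 exons, or 13 for Cyp4a10.

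Members of this cluster are close copies. The coding sequences of Cyp4a12a and Cyp4a12b differed at 23 of 1524 bases (98.5% identity). Cyp4a10 was 96.6% identical to Cyp4a31 and 97.2% identical to Cyp4a32, whereas Cyp4a14 was at most 76.1% identical to any other member. Coding bases 646 to 765 of Cyp4a12a and Cyp4a12b are shown because this 120-base window holds the most differences between them, 8, written in capitals in the second line. Windows are from GENCODE vM21, 5′ to 3′ on the coding strand:
Cyp4a12a: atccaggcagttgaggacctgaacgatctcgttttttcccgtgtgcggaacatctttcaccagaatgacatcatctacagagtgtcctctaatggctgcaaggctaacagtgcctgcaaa
Cyp4a12b: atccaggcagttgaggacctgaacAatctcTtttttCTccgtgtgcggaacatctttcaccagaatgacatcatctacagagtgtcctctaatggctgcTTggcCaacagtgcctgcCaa
Coding bases 160 to 279 of the other group of copies are shown for the same reason. Capitals mark the 6 bases of Cyp4a31 and the 13 bases of Cyp4a32 that differ from Cyp4a10:
Cyp4a10: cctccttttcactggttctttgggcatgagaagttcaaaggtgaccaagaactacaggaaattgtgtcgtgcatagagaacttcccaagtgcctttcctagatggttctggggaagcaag
Cyp4a31: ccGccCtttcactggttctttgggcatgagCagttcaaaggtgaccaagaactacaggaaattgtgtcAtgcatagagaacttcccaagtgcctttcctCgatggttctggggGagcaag
Cyp4a32: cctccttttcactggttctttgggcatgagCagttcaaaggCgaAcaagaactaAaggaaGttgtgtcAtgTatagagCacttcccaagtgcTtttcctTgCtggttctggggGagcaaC
Of all 50-base stretches of the transcripts, 48.9% in Cyp4a12a and 49.4% in Cyp4a12b also occurred in another Cyp4a gene. Counted as such were the other members and the further genes Cyp4a29 and Cyp4a30b. The share was 30.5% for Cyp4a10, 20.1% for Cyp4a31, 46.8% for Cyp4a32 and 0% for Cyp4a14. The sources used here do not say how reads that fit several copies were assigned, so the split between Cyp4a12a and Cyp4a12b and that among Cyp4a10, Cyp4a31 and Cyp4a32 are uncertain. Sums over each set of copies are therefore given beside the single genes.

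In these libraries the markers of the proximal tubule and of tubular injury moved strongly with cisplatin. Of 30 proximal tubule genes 29 fell with cisplatin and 29 rose with either precursor against cisplatin, and the phosphate transporter Slc34a1 averaged 3255 TPM in controls, 73.6 with cisplatin, 2400 with NMN and 2196 with NR. All 12 injury genes rose with cisplatin and fell with either precursor. Of all tested genes 18.6% fell and 40.7% rose with cisplatin. Against cisplatin, 15.1% rose and 34.0% fell with NMN, and 14.4% rose and 32.2% fell with NR. Havcr1 (Kim-1), for example, averaged 0.632, 1204, 228 and 277.7 TPM in the same order. In whole kidney, fewer cells of a type and less RNA per cell cannot be told apart. Mitochondrially encoded mRNAs made up 25.03 to 34.03% of the listed TPM with PBS, 15.6 to 17.6% with cisplatin, 22.7 to 28.4% with NMN and 22.1 to 30.3% with NR. The 13 fat tissue genes summed to 97.0 to 204.0 TPM with PBS, 366.6 to 576.6 with cisplatin, 106.5 to 202.1 with NMN and 118.6 to 502.9 with NR, the last highest in libraries 3 and 4. Liver also expresses this family strongly. Of 12 liver genes, Cyp2c29, Cyp3a11, Tat and Ahsg reached at most 0.6 TPM in any library, Alb, Apoa1 and Apoa2 at most 6.56, 5.92 and 23.7, and Serpina1a, Ttr and Fga up to 111.2, 142.1 and 555.9. The 12 genes summed to 121.4 to 184.3 TPM with PBS, 387.1 to 741.7 with cisplatin, 141.5 to 284.1 with NMN and 218.1 to 231.6 with NR, and their part in the Cyp4a values was not tested. The adrenal list of 7 genes summed to at most 8.39 TPM, with Cyp11b2 at 0 throughout. The Y-linked gene Ddx3y was present in every library (8.58 to 15.1 TPM).

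Since TPM is per length, the members can be ranked within a group by the deposited values. The order among close copies rests on the unknown assignment of shared reads and is uncertain. With PBS the order was Cyp4a31 (208.8 TPM ± 52.8, SD, n = 4 here and below), Cyp4a10 (161.9 ± 30.6), Cyp4a12a (33.4 ± 19.7), Cyp4a14 (18.1 ± 5.74), Cyp4a12b (10.2 ± 1.83) and Cyp4a32 (0.090 ± 0.115). The ranges of Cyp4a31 and Cyp4a10 overlapped, as did those of Cyp4a12a and Cyp4a14. With cisplatin Cyp4a10 (163.3 ± 17.6) stood above Cyp4a31 (106.0 ± 11.9) without overlap, and Cyp4a12a (1.59 ± 0.602) stood below Cyp4a12b. With NMN or NR, Cyp4a10 and Cyp4a31 led with overlapping ranges, and Cyp4a14 had the next highest mean, overlapping Cyp4a12a in both groups. In NMN library 1 Cyp4a12a (41.89 TPM) was above Cyp4a14 (27.13 TPM).

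**Figure D1:**
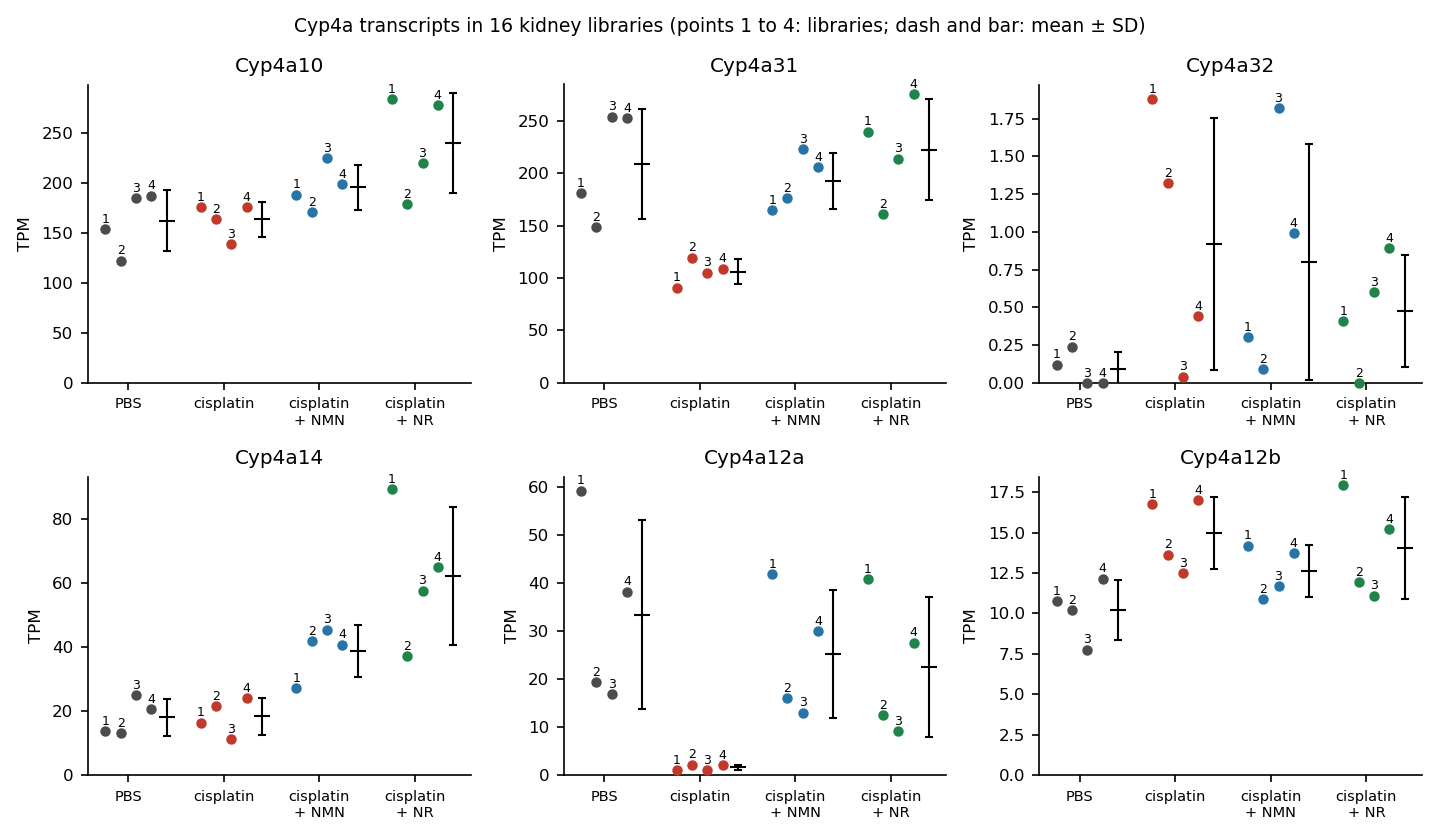
TPM (vertical axes, from 0) of the 6 Cyp4a genes in each library, numbered 1 to 4 within the 4 groups named on the horizontal axis; dash and bar are the mean ± SD of 4 libraries. Cyp4a12a lay between 1.07 and 2.17 TPM with cisplatin, and Cyp4a14 lay between 27.1 and 89.4 TPM in the libraries with a precursor.

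Among the 5 members past the filter, Cyp4a14 stood highest above PBS in fold, though not in TPM, when a precursor was given. Its TPM in libraries 1 to 4 was 13.63, 13.04, 24.93 and 20.64 with PBS. With cisplatin alone it was 16.4, 21.6, 11.3 and 24.1, which overlapped PBS. NMN gave 27.1, 41.8, 45.5 and 40.8, and NR gave 89.4, 37.2, 57.7 and 65.0. Every library with a precursor was thus above every library without one, while NMN and NR overlapped each other. The difference between cisplatin and PBS was 0.02 (SE 0.27) on the log2(TPM + 1) scale, on which all differences below are given. NMN was above PBS by 1.09 (2.15-fold in mean TPM) and NR by 1.72 (3.45-fold). Against cisplatin alone the differences were 1.07 and 1.70, and NR was above NMN by 0.63 (each SE 0.27). The fat tissue genes summed to 118.6, 197.7, 502.9 and 352.3 TPM in NR libraries 1 to 4, and their part in the Cyp4a14 values was not tested. Without NR libraries 3 and 4 the difference between NR and PBS was 1.67.

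Cyp4a10, the other classic PPAR-alpha target, varied less. Its levels were 153.6, 122.1, 184.7 and 187.1 TPM with PBS and 175.7, 163.2, 138.3 and 175.8 with cisplatin. NMN gave 188.1, 170.4, 224.3 and 198.6 TPM, and NR 283.7, 178.3, 219.3 and 277.3. PBS and cisplatin overlapped (difference 0.03, SE 0.16), and NMN overlapped both. NR lay above cisplatin without overlap, by 0.53, but its lowest library, 178.3 TPM, fell within the PBS range (difference 0.56). Library 2 was the lowest of its group in PBS, NMN and NR.

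Cyp4a31, a close copy of Cyp4a10, was the only member besides Cyp4a12a that was lower in every cisplatin library than in any PBS library. It stood at 180.8, 148.4, 254.0 and 252.2 TPM with PBS and at 90.7, 119.4, 105.0 and 108.8 with cisplatin. NMN libraries gave 164.4, 176.1, 222.8 and 205.5 TPM and NR libraries 239.7, 161.2, 213.9 and 275.3. Cisplatin was below PBS by 0.94 on the log2 scale (SE 0.18; 1.97-fold lower in mean TPM), and all libraries with a precursor were back within or above the PBS range. NMN and NR differed from PBS by -0.09 and 0.10. Cyp4a32, the third copy, was barely detected: it was at most 0.24 TPM with PBS and at most 1.88 TPM in any library, and it was listed at 0 in 3 of 16 libraries, so no fold is given.

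Of the 5 members past the filter, Cyp4a12a had the largest difference with cisplatin on the log2 scale, though not in TPM. It stood at 59.3, 19.3, 16.9 and 38.2 TPM with PBS and at 1.07, 2.17, 1.07 and 2.05 with cisplatin. With NMN it was 41.89, 16.11, 13.03 and 30.01 TPM and with NR 40.9, 12.5, 9.11 and 27.6. Every cisplatin library was below every other library, by a mean of 21.0-fold against PBS (difference -3.59, SE 0.47). NMN and NR overlapped PBS (-0.36 and -0.60) and each other (-0.24). Among PBS, NMN and NR, however, PBS was highest, NMN next and NR lowest within each of the 4 library numbers. The labels do not say that a number marks a shared animal or day. Libraries 1 and 4 were above libraries 2 and 3 in PBS, NMN and NR alike, and the same libraries also held the larger share of mitochondrially encoded mRNA; the part of that share in the Cyp4a12a values was not tested. With the mitochondrial genes taken out and each library rescaled, the difference between cisplatin and PBS was -3.92.

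**Figure D2:**
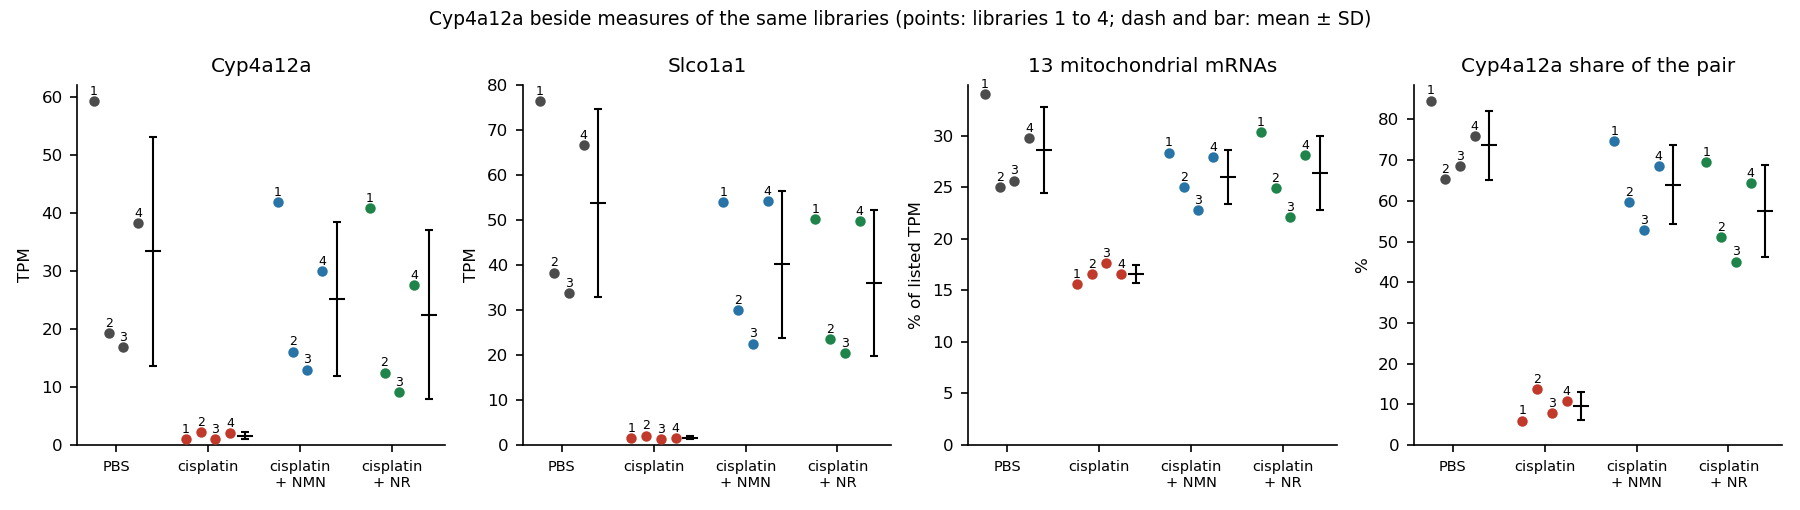
Per library (points 1 to 4; dash and bar, mean ± SD of 4): TPM of Cyp4a12a and of the organic anion transporter Slco1a1, the share of mitochondrially encoded mRNAs in the listed TPM (%), and the share of Cyp4a12a in the summed TPM of Cyp4a12a and Cyp4a12b (%). In PBS, NMN and NR, libraries 1 and 4 are above libraries 2 and 3 in every panel, while cisplatin libraries are lowest throughout.

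Cyp4a12b, the near-identical neighbour, did not follow Cyp4a12a. Its levels were 10.8, 10.2, 7.76 and 12.2 TPM with PBS, 16.78, 13.64, 12.49 and 16.99 with cisplatin, 14.2, 10.9, 11.7 and 13.7 with NMN, and 17.9, 11.9, 11.1 and 15.2 with NR. Cisplatin was above PBS without overlap, by 0.51 (SE 0.17; 1.47-fold). After median-of-ratios scaling, which centres the libraries on the typical gene, that difference was 0.22 and the groups overlapped. The 2 copies summed to 43.7 TPM ± 20.9 in the PBS group, 16.6 ± 2.41 after cisplatin alone, 37.9 ± 14.8 with NMN and 36.6 ± 17.8 with NR, and cisplatin did not overlap the other groups. Cyp4a12a made up 65.4 to 84.7% of this sum with PBS but 5.99 to 13.7% with cisplatin, then 52.8 to 74.7% with NMN and 45.1 to 69.5% with NR. Within groups the copies did vary together: the Pearson r of deviations from the group means was 0.78 over 16 libraries, against -0.23 without removing the group means.

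Cyp4a10, Cyp4a31 and Cyp4a32, the other set of close copies, summed to 370.8 TPM ± 82.9 in the PBS group, 270.2 ± 19.4 after cisplatin alone, 388.4 ± 48.1 with NMN and 462.7 ± 96.6 with NR. For this sum PBS and cisplatin overlapped, but cisplatin was lower without overlap after median-of-ratios scaling and with mitochondrially encoded genes removed. Both precursor groups were above cisplatin without overlap as deposited. Together the 6 members summed to 432.5 TPM ± 88.7 in the PBS group, 305.1 ± 26.8 after cisplatin alone, 465.1 ± 47.7 with NMN and 561.6 ± 129.6 with NR. PBS and cisplatin overlapped, since PBS library 2 had 313.3 TPM and cisplatin reached 328.2, but they did not after median-of-ratios scaling. Both precursor groups were above cisplatin without overlap. The make-up shifted along with the total. Cyp4a10 supplied 36.6 to 39.0% of the family's transcripts with PBS and 50.8 to 58.1% with cisplatin, and Cyp4a14 supplied 3.26 to 5.11% with PBS and 9.28 to 13.3% with NR. Within the set of Cyp4a10, Cyp4a31 and Cyp4a32, the share of Cyp4a31 was 54.0 to 57.9% with PBS, 33.8 to 43.2% with cisplatin, 46.6 to 50.8% with NMN and 45.8 to 49.7% with NR. This share stayed below PBS in every library with a precursor.

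**Figure D3:**
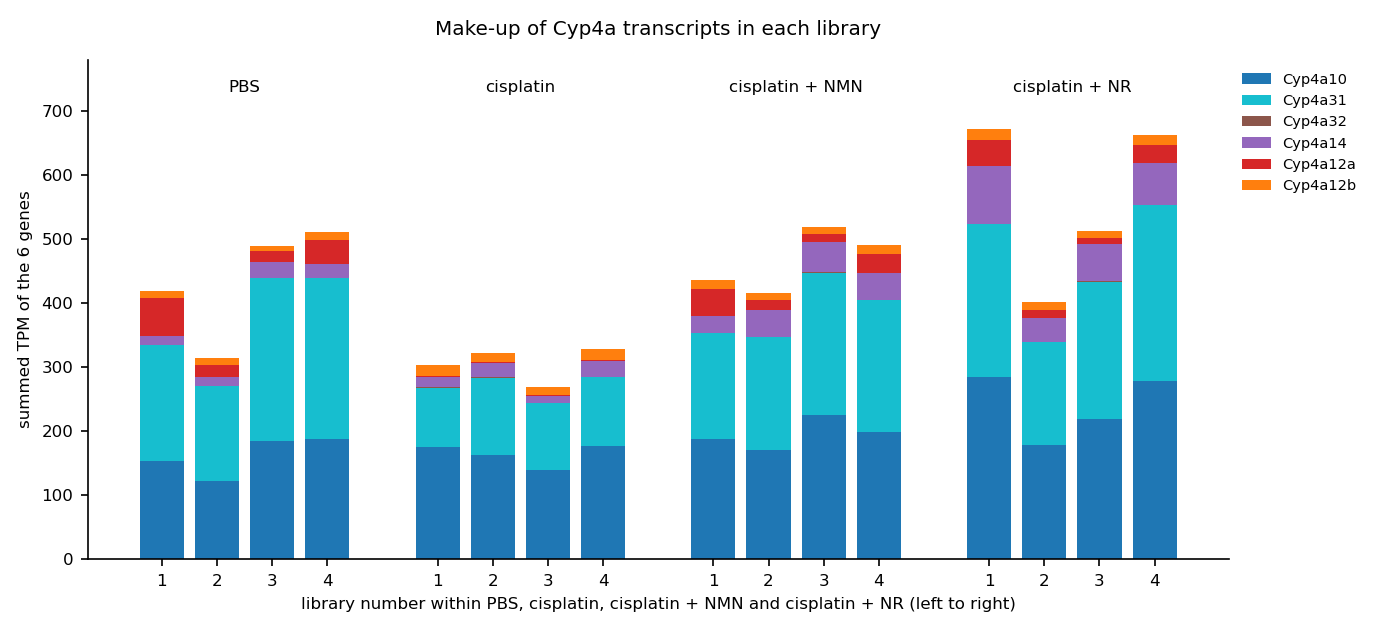
Stacked TPM of the 6 Cyp4a genes in each of the 16 libraries (vertical axis from 0; libraries 1 to 4 within each group). Cyp4a10 and Cyp4a31 fill most of every bar, the sum lies between 268.3 and 328.2 TPM with cisplatin, and the Cyp4a12a segment is nearly absent there.

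The counts of members that did not overlap have to be read against the whole table, because cisplatin changed most genes. In cisplatin against PBS, 2 of the 5 members past the filter lay lower and 1 higher without overlap, where 15.6% and 35.3% of all tested genes did. In NMN against cisplatin, 3 of 5 lay higher (13.4% of all genes), and in NR against cisplatin 4 of 5 did (12.7%). Against PBS only Cyp4a14 lay higher without overlap, with NMN (8.77% of all genes) and with NR (11.8%), and no member did in NR against NMN (1.64% in either direction). These comparisons share control groups, and the members were chosen from the same values, so nothing is read from the counts. The median difference of all tested genes was 0.27 in cisplatin against PBS, -0.23 in NMN against cisplatin and -0.20 in NR against cisplatin. Among called genes the split of higher against lower was 5278 to 2415, 1954 to 4405 and 1870 to 4174 in these comparisons, and 3813 to 3689, 2888 to 3047 and 2752 to 2904 after median-of-ratios scaling. Against PBS it was 763 to 15 for NMN and 1139 to 157 for NR (740 to 91 and 1044 to 478 after that scaling). After median-of-ratios scaling the differences of Cyp4a10 and Cyp4a14 between cisplatin and PBS were -0.29 and -0.28, in place of 0.03 and 0.02, and the groups overlapped under either scaling. For Cyp4a10 in NMN against cisplatin the difference became 0.50 in place of 0.26, and the groups no longer overlapped.

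**Figure D4:**
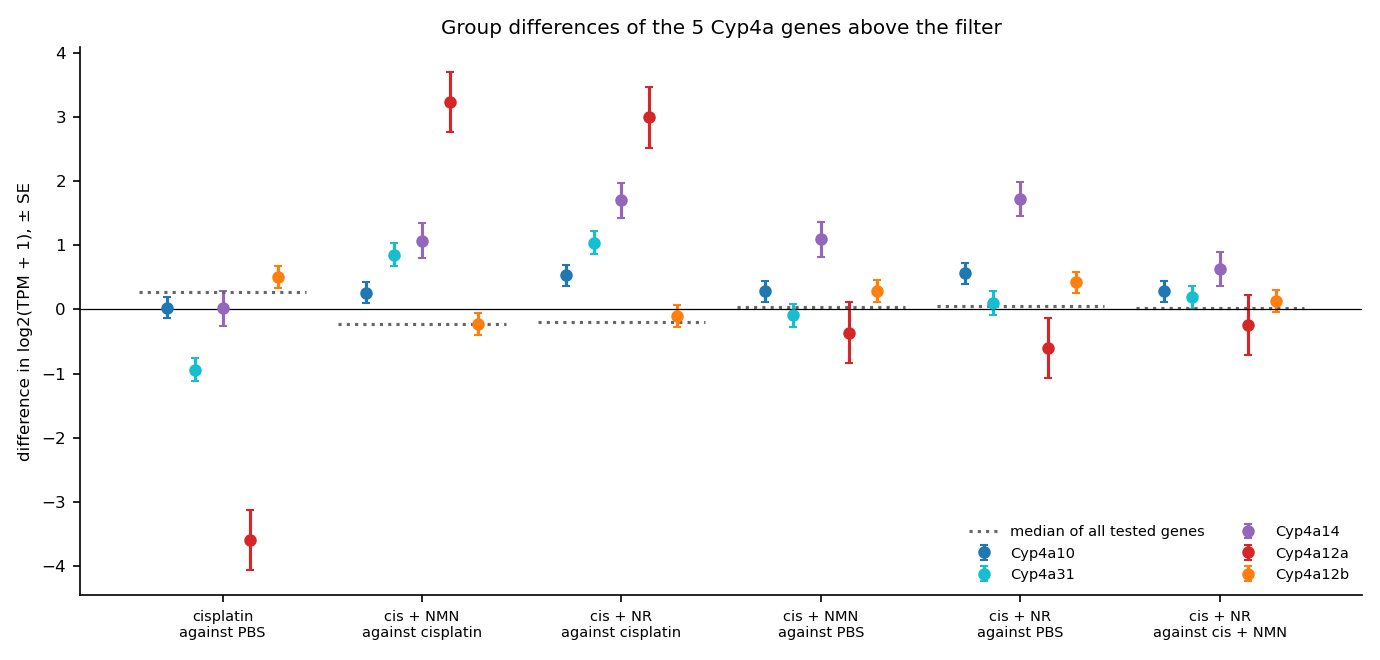
Differences between group means of log2(TPM + 1) with their SE for the 5 Cyp4a genes past the filter, in 6 comparisons; the dotted lines are the medians of all 12960 tested genes. Cyp4a12a moves by -3.59 with cisplatin and by 3.23 and 2.99 when a precursor is added, while Cyp4a14 is near 0 with cisplatin and at 1.09 and 1.72 in the precursor groups against PBS.

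The direct comparison of the precursors gave no called gene among 12960 in limma, that is 0.0% (370 had an unadjusted p under 0.05). A call here and below is an adjusted p under 0.05 from limma with Benjamini-Hochberg adjustment over all tested genes, and rose and fell are used of called genes. The NR minus NMN differences of the members were 0.63 for Cyp4a14 (SE 0.27), 0.28 for Cyp4a10 (SE 0.16), 0.19 for Cyp4a31 (SE 0.18), 0.13 for Cyp4a12b (SE 0.17) and -0.24 for Cyp4a12a (SE 0.47).

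Other CYP4 subfamilies took different courses. Of 14 further Cyp4 genes in the table, 6 were tested, and with cisplatin 5 rose and 1 fell, beside 40.7% and 18.6% of all tested genes. The gene that fell was Cyp4b1, a renal enzyme of fatty acids and xenobiotics and far more abundant than any Cyp4a gene: it went from 2473 TPM ± 192.0 with PBS to 274.8 ± 18.1 with cisplatin (adjusted p 3.48e-13). It rose to 1874 ± 327.6 with NMN (adjusted p 5.39e-12 against cisplatin) and to 1692 ± 191.5 with NR (1.22e-11). Cyp4f17 and Cyp4f16, of the subfamily that hydroxylates leukotrienes and other lipids, went the other way. Cyp4f17 rose from 3.79 ± 0.180 to 26.6 ± 6.64 TPM with cisplatin (adjusted p 7.96e-10) and fell to 9.03 ± 1.58 with NMN (2.27e-06) and 9.075 ± 1.503 with NR (3e-06). Cyp4f16 rose from 5.76 ± 2.01 to 33.1 ± 2.20 TPM (2.83e-09). The further Cyp4a genes Cyp4a29 and Cyp4a30b were listed at 0 in 16 and 15 libraries.

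P450 enzymes need electrons from a reductase. Por, the main donor, was not called in any comparison and stayed between 161.9 and 248.9 TPM. Among 6 electron donors, Cyb5a, the cytochrome b5 that helps many P450 reactions, fell from 1165 ± 50.6 to 503.9 ± 28.1 TPM with cisplatin (adjusted p 4.12e-09) and rose with NMN (1.7e-07) and NR (1.64e-06). Its reductase Cyb5r3 rose with cisplatin from 98.8 ± 7.47 to 191.1 ± 8.39 TPM (6.34e-08) and fell with NMN (5.61e-06) and NR (3.95e-05).

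Among the regulators, Ppara itself was not called in any comparison. Its means were 7.10 TPM ± 2.95 in the PBS group, 10.2 ± 3.15 after cisplatin alone, 12.6 ± 3.00 with NMN and 15.0 ± 11.5 with NR, and NR library 4 alone reached 32.2 TPM. Of 12 tested genes in the list of PPAR-alpha and its partners, 3 rose and 3 fell with cisplatin (2 and 5 after median-of-ratios scaling). Of all tested genes 40.7% rose and 18.6% fell in that comparison. Rxra, the receptor that pairs with PPAR-alpha, fell from 25.97 ± 3.793 to 18.9 ± 2.28 TPM (adjusted p 0.00687). The coactivator Ppargc1a fell from 5.50 ± 1.07 to 2.61 ± 0.430 TPM (0.00048) and rose with NMN to 4.85 ± 0.825 (0.00328) and with NR to 5.19 ± 1.17 (0.00166). Hnf4a, which drives proximal tubule and hepatocyte programs, fell from 172.6 ± 21.8 to 39.5 ± 9.84 TPM (1.57e-09) and rose with NMN (4.44e-08) and NR (6.21e-08).

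Among 44 tested PPAR-alpha targets outside the family, 20 fell and 14 rose with cisplatin (25 and 12 after median-of-ratios scaling), beside 18.6% and 40.7% of all tested genes. The risers Plin2, which coats lipid droplets, and Pdk4, which turns off pyruvate oxidation, went from 55.4 ± 9.84 to 1179 ± 137.2 TPM (adjusted p 2.98e-12) and from 4.42 ± 1.15 to 60.8 ± 7.26 TPM (9.42e-12). Retsat, a retinol saturase, fell from 134.9 ± 4.55 to 43.3 ± 6.71 TPM (4.7e-09). In NMN and in NR against cisplatin 19 rose and 12 fell (23 and 8 for NMN, 24 and 5 for NR after median-of-ratios scaling). Of all tested genes 15.1% rose and 34.0% fell with NMN, and 14.4% rose and 32.2% fell with NR. Against PBS, 4 of the 44 rose with NMN, beside 5.89% of all tested genes, and 6 with NR, beside 8.79%. No target fell in either (0.116% and 1.21% of all tested genes), although after median-of-ratios scaling 1 fell with NMN and 2 with NR. Ucp2, a mitochondrial carrier, averaged 71.4 TPM ± 13.4 with PBS and rose to 139.5 ± 45.3 with NMN (adjusted p 0.00476) and 158.0 ± 19.9 with NR (0.000428). Plin2 and Pdk4 were in both sets, with means of 240.9 and 16.2 TPM with NMN and 279.0 and 22.0 with NR.

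Most tested genes in a broad list of steps that can follow omega hydroxylation fell with cisplatin. The list also holds genes for other fatty acids, such as branched ones, so it does not single out the products of CYP4A enzymes. Of 25 tested members of this list, which spans dehydrogenases, acyl-CoA synthetases and peroxisomal oxidation, 18 fell and 2 rose with cisplatin, and 17 rose and 2 fell with either precursor against cisplatin. The background shares in the same directions were 18.6% and 40.7% for cisplatin, 15.1% and 34.0% for NMN, and 14.4% and 32.2% for NR. Amacr, a racemase of branched fatty acids, went from 145.8 ± 24.5 to 14.7 ± 2.70 TPM with cisplatin (adjusted p 6.89e-12), then to 108.5 ± 19.6 with NMN (1.21e-10) and 105.9 ± 12.1 with NR (1.56e-10). Slc27a2, a very long chain acyl-CoA synthetase and transporter, fell by 1.99 on the log2 scale from 2201 ± 287.1 TPM (3.54e-09). Ehhadh, the peroxisomal bifunctional enzyme that shortens dicarboxylic acids, fell from 206.8 ± 33.4 to 84.4 ± 9.63 (2.39e-07). Acsl4, a synthetase that prefers arachidonic acid, rose from 6.95 ± 0.947 to 35.0 ± 6.83 TPM (1.08e-08).

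**Figure D5:**
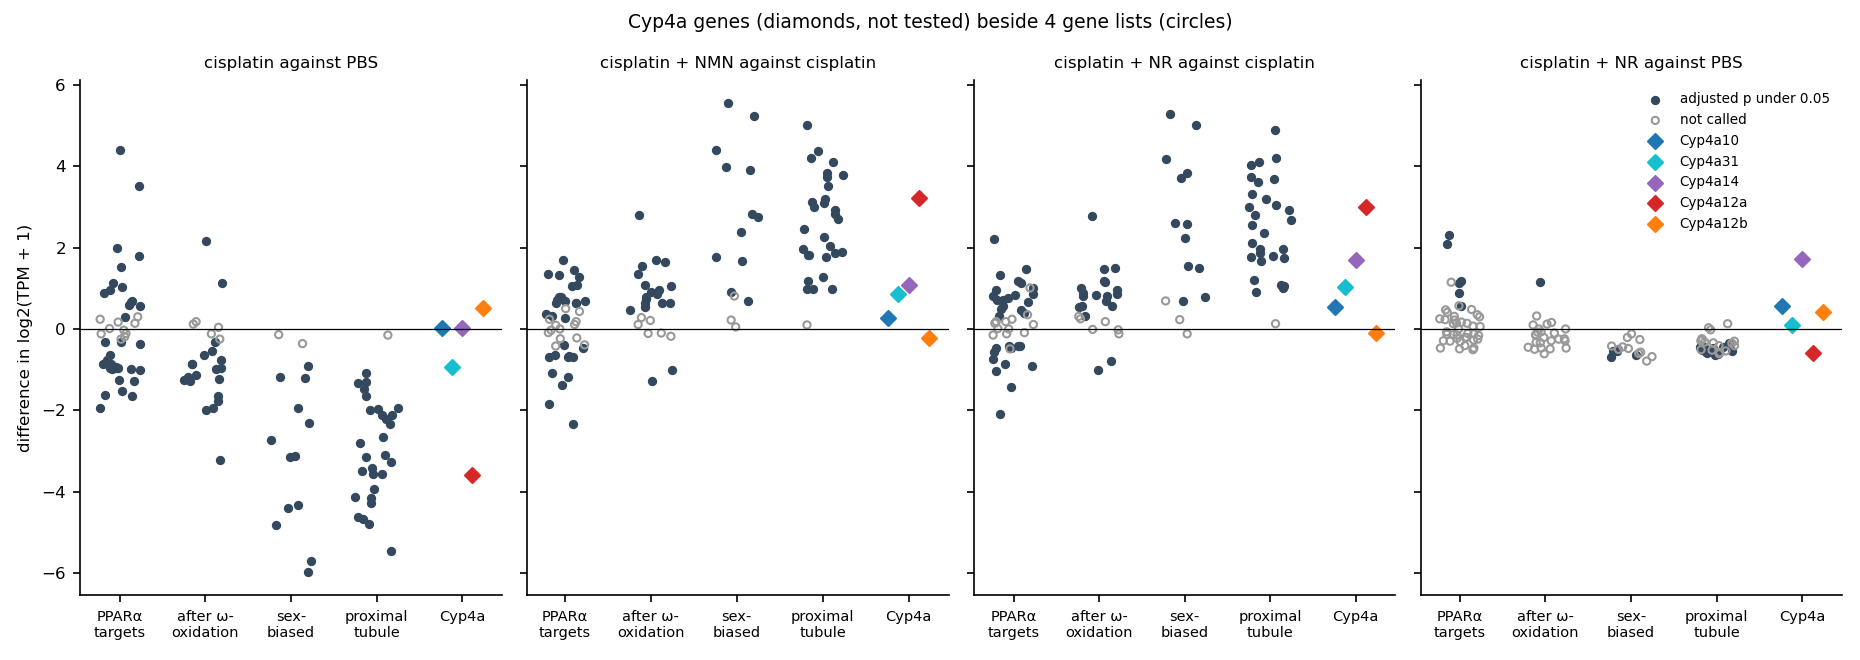
Differences in log2(TPM + 1) of single genes (circles; filled, adjusted p under 0.05 in limma) in 4 lists beside the 5 Cyp4a genes (diamonds, not tested), for 4 comparisons on a shared vertical axis. With cisplatin 29 of 30 proximal tubule genes fell, and Cyp4a12a at -3.59 lies inside their range. Cyp4a10 and Cyp4a14 lie near 0, by less than their SE, and Cyp4a12b lies above 0. The median of all tested genes was 0.27 in that comparison.

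Cyp4a enzymes share arachidonic acid with epoxygenases. In the list of 18 tested eicosanoid genes 8 rose and 7 fell with cisplatin, beside 40.7% and 18.6% of all tested genes. The epoxygenases Cyp2j5, Cyp2j13 and Cyp2j11 fell, Cyp2j5 from 651.7 ± 74.8 to 65.1 ± 18.5 TPM (adjusted p 2.8e-11), and rose with NMN (3.83e-10) and NR (8.42e-10). With cisplatin Cyp2j9 fell too (adjusted p 0.00514), but Cyp2j6 rose, from 12.2 ± 1.18 to 21.7 ± 1.33 TPM (1.41e-05). The soluble epoxide hydrolase Ephx2 fell as well, from 247.1 ± 20.1 to 72.2 ± 10.5 TPM (1.7e-10), while the microsomal hydrolase Ephx1 rose from 25 ± 5.46 to 275.3 ± 19.2 TPM (1.09e-11).

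Cyp4a12a is 1 of several sex-biased genes of the mouse kidney. Of 15 others tested, 13 fell and none rose with cisplatin, and 12 rose and none fell with NMN and with NR against cisplatin. Of all tested genes 18.6% fell and 40.7% rose with cisplatin, and 15.1% rose with NMN and 14.4% with NR. Cyp4b1 and Cyp2j13 are also among these 15. The transporter Slc22a28 fell from 87.7 ± 15.9 to 0.718 ± 0.437 TPM (adjusted p 4.21e-14), Slc7a13 from 433.3 ± 82.8 to 6.17 ± 2.55 (3.95e-13), and the androgen-regulated Kap averaged 45830 TPM with PBS and 5380 with cisplatin. Proximal tubule markers fell in the same comparison, their 30-gene sum being 19043 to 22623 TPM with PBS and 2214 to 3399 with cisplatin, and their part in these values was not tested.

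By the rule for likeness, the highest Pearson r of log2(TPM + 1) over 16 libraries among tested genes outside the family, predicted genes left out, averaging at least 5 TPM, Cyp4a12a was nearest to the mitochondrial genes CYTB and ND4 (r 0.983 each) and to Slco1a1 (0.982). Slco1a1 was 76.4, 38.3, 33.8 and 66.7 TPM with PBS and 1.47, 2.06, 1.37 and 1.5 with cisplatin. With group means removed, r with Slco1a1 was 0.958, and libraries 1 and 4 were the higher ones for both genes in PBS, NMN and NR. Cyp4a14 and Cyp4a10 shared their nearest gene, Vnn1, a pantetheinase and PPAR-alpha target (r 0.879 and 0.902; with group means removed, 0.83 for each). Vnn1 averaged 51.9 TPM ± 4.41 in the PBS group, 48.2 ± 4.89 after cisplatin alone, 56.9 ± 2.89 with NMN and 67.4 ± 14.5 with NR. Klhdc7a (0.810) was also among the genes most like Cyp4a10, and Ugt2b34 (0.791) among those most like Cyp4a14. For Cyp4a31 they were Sumf1 (0.935), Crat (0.933) and Mfap3l (0.932), and for Cyp4a12b they included Gpt2 (0.840) and Igf2r (0.83). Among the members themselves r was 0.89 for Cyp4a10 with Cyp4a14, and 0.64 for Cyp4a10 with Cyp4a31, rising to 0.83 with group means removed. These values describe 16 libraries that share 4 group levels and a common scaling.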

How the data were processed

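RNA-seq of 16 libraries of whole mouse kidney was analysed as a deposited table of TPM (abundance per length, scaled to a fixed total). The submitters' processing notes name the build GRCm38 (mm10) and the tools DESeq2 1.10.1, HTSeq 0.6.1, STAR 2.4.1d and Trim Galore, with no order. The sources used here do not say how the authors computed the deposited TPM, from which annotation, or how reads that fit several genes were handled. TPM keeps no library depth, so the depth is unknown and no counting intervals are given. The listed TPM summed to 860428 to 903678 per library.

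Of 23982 entries, 23935 symbols remained after TPM of entries with the same symbol was summed. Genes at 1 TPM or more in 4 libraries (12960) were fitted with limma 3.58.1 in R 4.3.3 on log2(TPM + 1), with 4 group means, 12 residual degrees of freedom, and trended, robust variances. Benjamini-Hochberg adjustment ran over all tested genes for each comparison, and a call is an adjusted p under 0.05. A fold on this scale understates changes of low genes. Alternatives were a pseudocount of 0.1, other minimum levels, median-of-ratios scaling, removal of the 13 mitochondrially encoded mRNAs, other variance settings, a replicate block and leaving out libraries. The fit was tested on simulated data.

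The members and gene lists were chosen with earlier results of these data known, so values of the members carry no test. Genes outside the family were named by rule: per list and comparison, up to 4 called genes with the smallest adjusted p whose higher group averaged at least 5 TPM; Ppara, Rxra, Ppargc1a, Hnf4a and Por always; and per member the 3 most alike genes. Some genes that this rule names are not reported here. Slc34a1, Havcr1 and genes of the tissue checks come from the marker lists. Sequences and coordinates come from GENCODE vM21 (GRCm38).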

Additional observations from a re-analysis of the deposited data

Results flagged for a closer look

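Gaps between 1 library and the other 3 of its group were compared with the range of the group for 276 gene and group combinations, a check that marks about 1 in 20 groups by chance. No Cyp4a gene was marked. Among regulators and electron donors, Ppara was 32.2 TPM in 1 NR library, Por was 162 TPM (161.88) and Rxra 18.8 TPM in 1 NMN library each. Among other Cyp4 genes, Cyp4f16 was 8.75 TPM and Cyp4f17 3.52 TPM in 1 PBS library each. Slc27a2 (2029 TPM), Cyp2j5 (651.1 TPM), Cyp2j11 (110.4 TPM) and Slc22a28 (78.0 TPM) were each high in 1 NMN library. Ugt2b34 (9.52 TPM) and Igf2r (25.1 TPM) stood apart in 1 cisplatin library each.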

How the results depend on the processing

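Many of the alternatives could not move a member difference beyond the spread of the libraries. Other minimum levels, other variance settings, the replicate block and leaving out a library of a group not compared leave it unchanged. Leaving out 1 of 4 libraries in a compared group moves it by at most that spread. Of 750 recomputed differences of Cyp4a genes, 5 moved by more than the spread, and this share is therefore no measure of stability. Among the 5, Cyp4a10 in cisplatin against PBS was -0.29 with median-of-ratios scaling and -0.23 with mitochondrially encoded genes removed. The others, all with median-of-ratios scaling, were Cyp4a10 in NMN against cisplatin (0.50), and Cyp4a12b (0.22) and Cyp4a31 (-1.26) in cisplatin against PBS. That scaling also took the median difference of all tested genes from 0.27 to 0.004 in cisplatin against PBS. In NMN against cisplatin it took that median from -0.23 to -0.018. What set these 5 apart from the other differences was not tested. Leaving out a library can only narrow the range of its group, so it can remove an overlap but not create one. With single libraries left out, 12 to 15 member comparisons of 36 did not overlap, and 7 to 9 of 18 for the sums. The lower number is in each case that with all libraries, so nothing is read from these counts about stability.

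Counts of called genes with 1 library left out were 7197 to 7693 for cisplatin against PBS, 5663 to 6507 for NMN and 5430 to 6140 for NR against cisplatin, 511 to 923 for NMN against PBS (511 without NMN replicate 3; 778 with all), and 981 to 1325 for NR against PBS. Without NR libraries 3 and 4 the last was 698 in place of 1296. NR against NMN gave 0 to 1, with 1 called gene without cisplatin replicate 2, and 1 with only the groups compared.

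Deviations from the group means in libraries with the same number correlated at r -0.13 to 0.29 in 24 pairs, over 0.1 in 9 of them, and 16 were highest within their own number. Among PBS, NMN and NR alone all 12 pairs were highest within their own number (r 0.05 to 0.29, 8 over 0.1), a hint of shared numbering from the data and not from the design. Since not every pair was over 0.1 and the labels name nothing shared, the numbers were not taken as pairs. With the replicate block, calls numbered 7839, 6507, 6184, 862, 1478 and 0 in the order above. Unknown depth leaves the precision of low genes such as Cyp4a32 undetermined.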
